A study of Mus musculus with 21 samples.

Results

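Pax5, Ebf1, Spib, Spi1, Pou2af1, Ets1, Bach2, Bcl6, Irf8 and Ikzf3 encode transcription factors that set or hold the identity of B cells. These 10 genes were chosen by their symbols, with earlier results of these data known. All 10 were found among the 56953 genes of the count tables and were measured in every library. The data were bulk RNA-seq read counts from sorted subsets (B-1a, B-1b, B-2) of peritoneal cavity B cells of C57BL/6 mice, either wild type (WT) or carrying a global knockout of the DNA demethylase TET2 (TET2-KO). The knockout allele lacks the exons that encode the catalytic region, and no other allele or treatment was named for either genotype. B-1a cells gave 4 libraries of each genotype, B-1b cells 4 (WT) and 3 (TET2-KO), and B-2 cells 2 (WT) and 4 (TET2-KO). Age and sex of the mice were not given in the labels, nor whether libraries with different numbers came from separate mice, so p-values measure the spread between these libraries, which may be technical in part. B-1 cells are a self-renewing population that makes natural antibody, whereas B-2 cells are the conventional recirculating population. The B-1 sort took B cells low in B220, CD23 and IgD, which the surface protein CD5 split into B-1a (CD5+) and B-1b (CD5-).

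Commitment to the B lineage rests on Ebf1 and Pax5, which switch on genes of the B cell receptor complex and silence genes of other lineages. The Ets family members PU.1 (gene Spi1), Spi-B (Spib) and Ets1, the coactivator OBF-1 (Pou2af1), which works with octamer-binding proteins, and IRF8, which binds DNA together with PU.1, keep mature B cells responsive. Bach2 and Bcl6 are repressors that hold B cells back from becoming plasma cells, Bcl6 being the central factor of germinal centers, and Aiolos (Ikzf3) is a zinc finger protein of the Ikaros family. Of these factors, PU.1 and IRF8 are also made by macrophages, and Ets1, Aiolos and Bach2 by T cells.

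The 21 libraries held between 9667187 and 24152518 assigned read pairs (median 17425219), of which the 10 genes took 0.158% to 0.309%. Counts were scaled with TMM factors and library size to CPM, and levels are given per library or as ranges over libraries. Tet2 itself was at 8.46 to 27.2 CPM in WT and 12.6 to 30.3 CPM in TET2-KO libraries; the counts were summed over the whole gene, so loss of its catalytic exons was not resolved and this level does not check the genotype labels. The sort markers Cd5 and Fcer2a (which encodes CD23) were at odds with the subset label in some WT libraries. Among the 16 libraries that are not labelled WT 1 or WT 2, Cd5 was at 15.9 to 22.7 CPM in B-1a, 2.09 to 5.10 in B-1b and 1.74 to 3.03 in B-2, and Fcer2a at 4.61 to 26.8, 31.5 to 71.2 and 484 to 834 CPM in the same order. The library labelled B-1a WT 1 had Cd5 at 5.15 and Fcer2a at 815 CPM, and the library labelled B-1b WT 2 had 3.20 and 598 CPM. The library labelled B-1b WT 1 had Cd5 at 18.7 and Fcer2a at 17.3 CPM, that labelled B-1a WT 2 had 1.64 and 18.3 CPM, and that labelled B-2 WT 1 had 2.14 and 24.2 CPM. These 5 libraries held 18074 to 19255 detected genes, against 17816 to 35576 in the other 16. Scaled by library total without TMM factors, they held less olfactory receptor RNA (6.26 to 11.7 against 72.4 to 1999 CPM). They kept their labels throughout, and the calls for the 10 genes in comparisons that used them are given with and without them. Ranges over the 21 libraries include them.

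**Figure D1:**
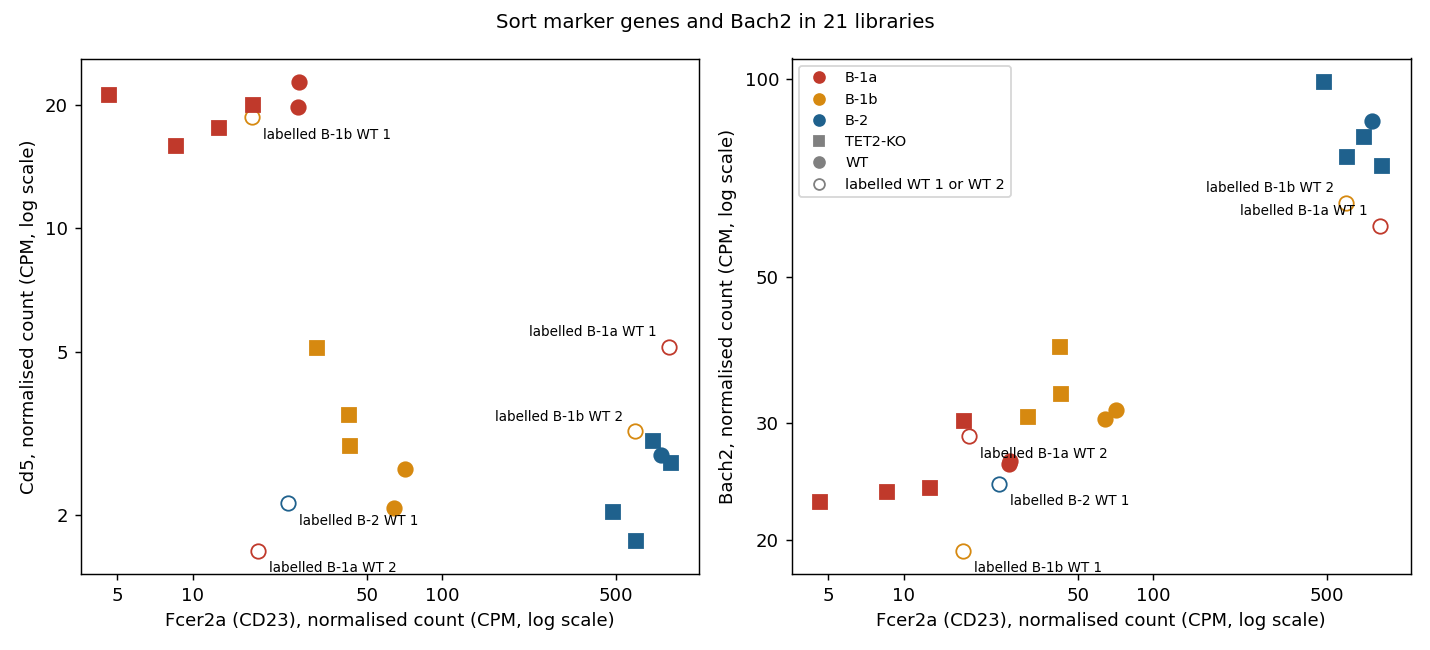
Sort marker genes and Bach2 in the 21 libraries, in CPM on log axes. Left, Cd5 against Fcer2a; right, Bach2 against Fcer2a; squares are TET2-KO, circles WT and open circles the 5 libraries labelled WT 1 or WT 2. The libraries labelled B-1a WT 1 and B-1b WT 2 sit at 815 and 598 CPM of Fcer2a beside the B-2 libraries, and the library labelled B-2 WT 1 sits at 24.2 CPM among the B-1 libraries.

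The 10 genes were also read in these 5 libraries against the ranges of the other 16. Bcl6 was at 27.3 CPM in the library labelled B-1a WT 1 and 25.0 CPM in that labelled B-1b WT 2, against 3.91 to 7.23 CPM in the B-1a and 5.95 to 7.31 CPM in the B-1b libraries not labelled WT 1 or WT 2. The other B-2 libraries had Bcl6 at 14.8 to 22.7 CPM. Of the 10 genes, 0 lay inside the range of the other B-2 libraries in the library labelled B-1a WT 1 or in that labelled B-1b WT 2. In both, Pax5, Ebf1 and Bach2 lay below that range and the other genes above it. In each, 2 lay inside the range of the other B-1a libraries, and 2 and 3 inside that of the other B-1b libraries. The library labelled B-2 WT 1 had 2 of the 10 inside the range of the other B-2 libraries, 4 inside that of the B-1a and 4 inside that of the B-1b libraries.

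Per kilobase of exon, which allows levels to be compared between genes, the factors spanned a wide range. Pou2af1 (70.8 to 433 CPM per kb over the 21 libraries) and Spib (78.1 or more) were the most abundant, followed by Spi1 (41.1 to 85.6), Ets1 (21.01 to 103) and Irf8 (12.6 to 62.9). Ikzf3 was at 9.58 to 33.4, Ebf1 at 11.3 to 23.6 and Pax5 at 5.03 to 12.6 CPM per kb. The repressors Bach2 (1.94 to 9.94) and Bcl6 (0.584 to 4.07) were the least abundant in every group. In TET2-KO B-2 cells the order of group means differed from that of the 5 other groups in that Ets1 stood above Spi1 and Ebf1 above Ikzf3, although the ranges of Ets1 (41.1 to 83.6) and Spi1 (41.1 to 68.3) overlapped. The B-2 WT means include the library labelled B-2 WT 1. In B-2 WT 4 alone, Ebf1 (19.9) was also above Ikzf3 (13.9), while Ets1 (61.1) was just below Spi1 (63.3). Irf8 and Ikzf3 were neighbours in TET2-KO B-1a cells, at 12.6 to 20.6 and 19.8 to 25.9 CPM per kb, ranges that overlapped. In TET2-KO B-2 cells Irf8 was at 33.7 to 50.5 and Ikzf3 at 9.58 to 14.9 CPM per kb, with no overlap. Spib exceeded its relative Spi1 in every library, by a median of 2.07 times in TET2-KO B-1a, 1.98 times in TET2-KO B-1b and 1.81 times in TET2-KO B-2 libraries. The ratio ran from 1.68 to 2.33, from 1.94 to 2.93 and from 1.30 to 1.92 in the same order, so that B-1a overlapped both other groups while every B-1b library was above every B-2 library; no test was run on it.

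**Figure D2:**
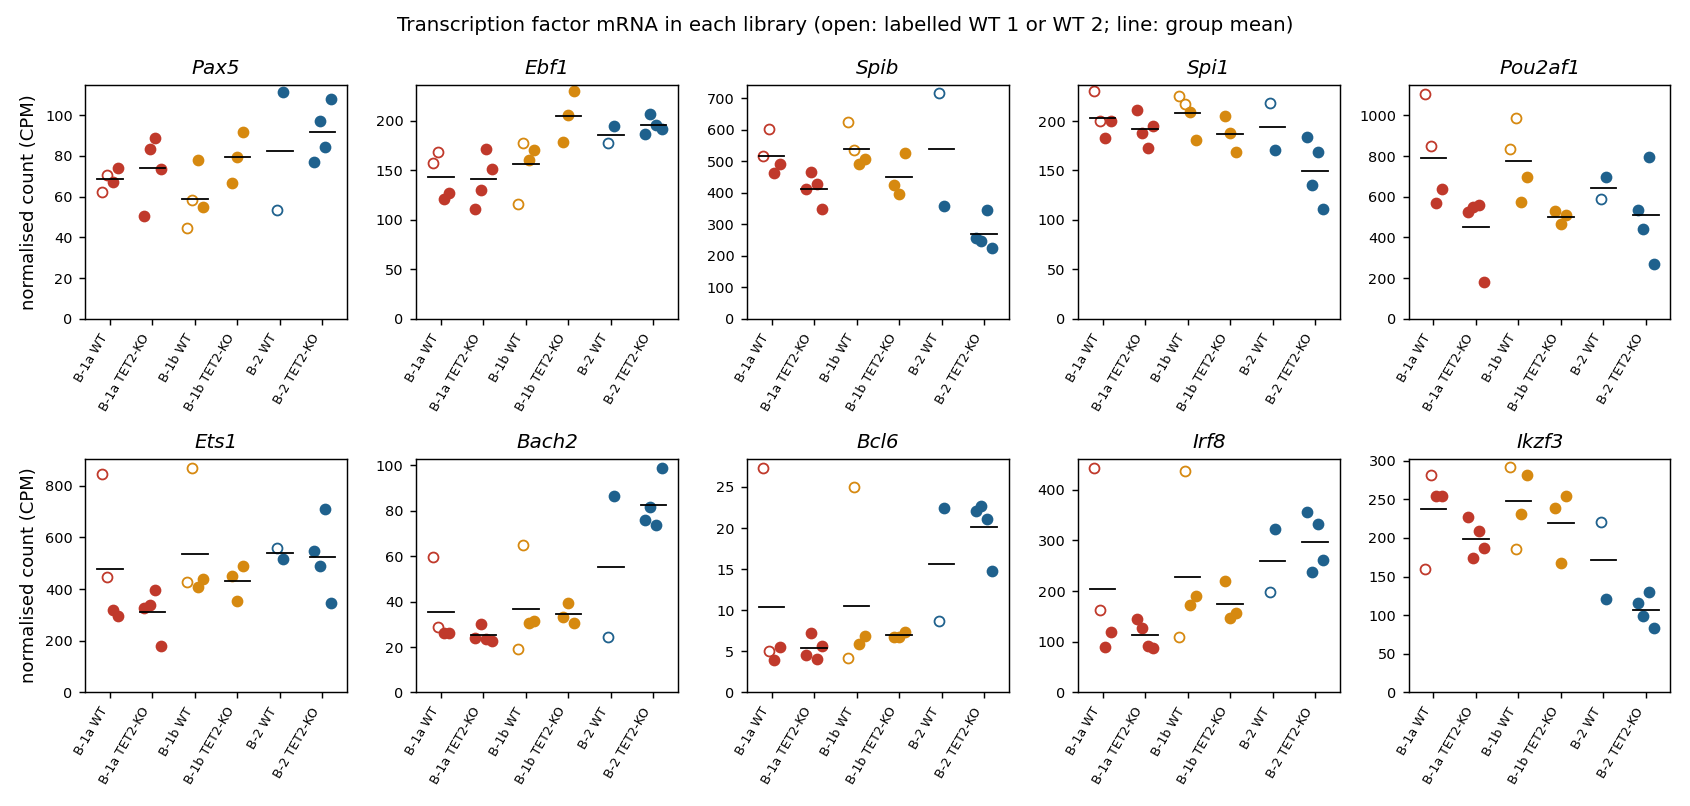
Normalised count (CPM, linear axes from 0) of each of the 10 genes in each library, by subset and genotype; points are libraries, lines are group means and open points are libraries labelled WT 1 or WT 2. Bach2, Bcl6 and Irf8 lay higher in B-2 than in B-1 TET2-KO libraries, Ikzf3 lay lower, and open points often sat outside the other points of their group.

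The promoter windows of Bach2, Irf8 and Spi1 are shown because the first 2 genes separated the subsets and Spi1 encodes a factor that binds the GGAA core of Ets family sites. Each is the 250 bases before the start of the canonical GENCODE transcript in GRCm39, printed 5′ to 3′ on the gene's strand, with capitals marking GGAA or its reverse complement TTCC. The windows are chr4:32238464-32238713 for Bach2, chr8:121462847-121463096 for Irf8 and chr2:90926191-90926440 for Spi1, all on the plus strand.
Bach2: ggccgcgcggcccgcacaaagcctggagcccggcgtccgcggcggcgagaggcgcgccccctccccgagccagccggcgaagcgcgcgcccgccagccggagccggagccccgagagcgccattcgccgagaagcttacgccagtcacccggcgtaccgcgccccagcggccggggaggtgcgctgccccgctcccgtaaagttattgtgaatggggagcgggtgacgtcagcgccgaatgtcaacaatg
Irf8: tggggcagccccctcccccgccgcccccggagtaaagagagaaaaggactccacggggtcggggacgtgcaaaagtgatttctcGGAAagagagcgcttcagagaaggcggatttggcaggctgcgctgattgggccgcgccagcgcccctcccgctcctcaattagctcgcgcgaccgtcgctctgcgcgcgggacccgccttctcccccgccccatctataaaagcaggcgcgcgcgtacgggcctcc
Spi1: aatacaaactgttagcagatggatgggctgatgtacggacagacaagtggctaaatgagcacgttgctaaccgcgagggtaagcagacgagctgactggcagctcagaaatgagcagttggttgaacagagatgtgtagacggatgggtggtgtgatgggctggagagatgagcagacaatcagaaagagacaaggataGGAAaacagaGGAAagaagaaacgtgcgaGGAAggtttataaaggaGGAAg
The Bach2 window held no GGAA core, the Irf8 window 1 and the Spi1 window 4, all 4 within 51 bases of the start. A GGAA core on either strand was present in 93.9% of 21770 promoters of this length, so its presence distinguishes few genes. In the windows of the 10 genes there were 0 matches on either strand to the composite Ets and IRF element, in which GAAA follows a GGAA core after 2 bases (in 2.54% of all promoters), 0 to the octamer ATGCAAAT (1.49%) and 0 to TGAGTCA, an element of the kind Bach proteins bind (4.02%). These matches describe letters in a window, and no binding was measured. Annotated exons, on either strand, covered 250 of the 250 bases of the Ikzf3 window and 195 of those of the Bcl6 window.

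B-1a and B-2 cells of TET2-KO mice were compared to learn which of the factors differ between the subsets in 1 genotype. In B-1a cells Bach2, Bcl6 and Irf8 were lower by 3.36-fold, 3.83-fold and 2.69-fold than in B-2 cells, and Ikzf3 was higher by 1.82-fold. These 4 of the 10 genes passed an adjusted p of 0.05 (quasi-likelihood test of edgeR, adjusted by Benjamini-Hochberg), against 5.82% of the 18555 genes tested, of which 3.26% were higher and 2.57% lower. DESeq2 called 7 of the 10, against 14.2% of the genes it tested. Replicate numbers paired the TET2-KO libraries of B-1a and B-2 cells, and with the number as a block 7 of the 10 passed (8.83% of all genes), the added 3 being Ebf1, Spib and Ets1. One fit of all 21 libraries called 2 of the 10, Bach2 and Ikzf3 (3.45% of all genes). That fit takes its spread from the 5 libraries labelled WT 1 or WT 2 as well. Without them, 1 fit of 16 libraries, chosen after seeing the data, called 5 of the 10 (5.54%). Among all genes, 19% did not overlap between the 2 groups (8.9% higher and 10.1% lower), and of the 10 genes 6 did not: Ebf1, Bach2, Bcl6 and Irf8 were lower and Spib and Ikzf3 higher in every B-1a library. Because these were bulk libraries, fewer cells of a type and less RNA per cell cannot be told apart. The B-2 libraries of this comparison also held more olfactory receptor RNA, scaled without TMM factors. It was at 269.8 to 1999 CPM, against 72.4 to 309 CPM in B-1a and 100.1 to 488 CPM in B-1b libraries. The B-2 libraries had 27669 to 35576 detected genes, against 18941 to 28140 in B-1a and 17816 to 26360 in B-1b. Their TMM factors, computed over all 21 libraries for the CPM values, were 1.04 to 1.54, against 0.878 to 1.10 in B-1a. The fit itself used factors computed on the TET2-KO libraries alone. The part of these library differences in the results was not tested.

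Bach2 (ENSMUSG00000040270.17, GRCm39 chr4:32238804-32586108, plus strand), a repressor that delays plasma cell formation, was at 23.9, 30.2, 23.6 and 22.8 CPM in the 4 TET2-KO B-1a libraries. It was at 76.0, 81.4, 73.7 and 98.8 CPM in the 4 TET2-KO B-2 libraries. Every B-1a value was less than the lowest B-2 value, and the log2 fold change was -1.75 (SE 0.18, adjusted p = 2.17e-05, edgeR). The antisense gene Bach2os overlaps 5.4% of its exonic bases and, by the counting defaults, fragments that overlap both genes were left out of the counts of both. Bcl6 (ENSMUSG00000022508.6, chr16:23783802-23807602, minus strand), the germinal center repressor, was at 4.60, 7.23, 4.03 and 5.64 CPM in B-1a and 22.1, 22.7, 21.1 and 14.8 CPM in B-2 libraries. The groups did not overlap, with B-2 TET2-KO 4 the lowest of the B-2 libraries, and the log2 fold change was -1.94 (SE 0.25, adjusted p = 0.000201, edgeR).

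Irf8 (ENSMUSG00000041515.11, chr8:121463097-121483433, plus strand), a partner of PU.1 at composite sites, was at 145, 126, 90.9 and 88.6 CPM in the TET2-KO B-1a and 356, 238, 333 and 261 CPM in the TET2-KO B-2 libraries. Again all B-1a libraries were lower, with a log2 fold change of -1.43 (SE 0.22, adjusted p = 0.000752, edgeR). Ikzf3 (ENSMUSG00000018168.9, chr11:98355728-98436857, minus strand), which encodes Aiolos, was at 227, 174, 209 and 187 CPM in B-1a and 116, 98.4, 130 and 83.9 CPM in B-2 libraries. It was the called factor with the opposite direction, higher in every B-1a library by 0.86 on the log2 scale (SE 0.19, adjusted p = 0.0113, edgeR). Leaving out any 1 of the 8 libraries kept all 4 calls, the largest adjusted p being 0.0457 for Ikzf3.

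The remaining 6 genes did not pass the test without the block. Spib (ENSMUSG00000008193.14, chr7:44175417-44181495, minus strand), the B cell relative of PU.1, was at 410, 467, 427 and 348 CPM in TET2-KO B-1a and 255, 246, 345 and 224 CPM in TET2-KO B-2 libraries. All B-1a libraries were above all B-2 libraries by a narrow margin, with a log2 fold change of 0.59 (SE 0.18, adjusted p = 0.0683, and 0.0174 with the block, edgeR). Ebf1 (ENSMUSG00000057098.15, chr11:44508144-44898918, plus strand), the pioneer factor of the lineage, was at 111, 130, 171 and 151 CPM in B-1a and 187, 206, 196 and 192 CPM in B-2 libraries, again without overlap. Its log2 fold change was -0.51 (SE 0.17, adjusted p = 0.0910, and 0.0296 with the block, edgeR). Ets1 (ENSMUSG00000032035.17, chr9:32547517-32669116, plus strand) was at 328, 339, 397 and 178 CPM in B-1a and 546, 489, 709 and 348 CPM in B-2 libraries. These ranges overlapped, because the libraries numbered 4 were the lowest of both groups, and the log2 fold change was -0.78 (SE 0.25, adjusted p = 0.0818, and 0.00299 with the block, edgeR). Pax5 (ENSMUSG00000014030.16, chr4:44524757-44710487, minus strand), Spi1 (ENSMUSG00000002111.9, chr2:90912735-90946101, plus strand) and Pou2af1 (ENSMUSG00000032053.9, chr9:51125008-51151380, plus strand) overlapped between the groups, with log2 fold changes of -0.35 (SE 0.20), 0.33 (SE 0.18) and -0.19 (SE 0.33). The sign for Pou2af1 changed when B-1a TET2-KO 4 or B-2 TET2-KO 3 was left out, over a range of -0.40 to 0.07.

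B-1b cells of TET2-KO mice, compared to the same 4 B-2 libraries, had lower Bach2 (2.48-fold) and Bcl6 (2.99-fold) and higher Ikzf3 (2.00-fold). These were 3 of the 10 genes, against 2.15% of the genes tested (1.52% higher and 0.631% lower), and DESeq2 called 5, against 12.1%. One fit of all 21 libraries called 0 of the 10 (0.031% of all genes). The fit of 16 libraries, which leaves out those labelled WT 1 or WT 2, called 3 of the 10 (2.4%). This comparison shares its B-2 libraries with the preceding one, so the 2 are not independent. Bach2 was at 33.3, 39.1 and 30.7 CPM in the 3 B-1b libraries, Bcl6 at 6.73, 6.76 and 7.31 CPM, and Ikzf3 at 239, 167 and 254 CPM. None of these overlapped the B-2 values given above. The log2 fold changes were -1.31 for Bach2 (SE 0.20, adjusted p = 0.00148), -1.58 for Bcl6 (SE 0.28, adjusted p = 0.00527) and 1.00 for Ikzf3 (SE 0.20, adjusted p = 0.0140, edgeR). The Ikzf3 call was lost on leaving out B-1b TET2-KO 1, B-1b TET2-KO 3 or B-2 TET2-KO 2, with an adjusted p of up to 0.0877 by edgeR. Irf8 was at 219, 147 and 157 CPM and Spib at 424, 395 and 526 CPM in the B-1b libraries, each on one side of all B-2 libraries, as 19.3% of all genes were. Their log2 fold changes of -0.81 (adjusted p = 0.0911) and 0.70 (adjusted p = 0.0788) did not pass the edgeR test. Ebf1 was at 179, 206 and 230 CPM in B-1b libraries and overlapped the B-2 range, with a log2 fold change of 0.03 (SE 0.18).

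**Figure D3:**
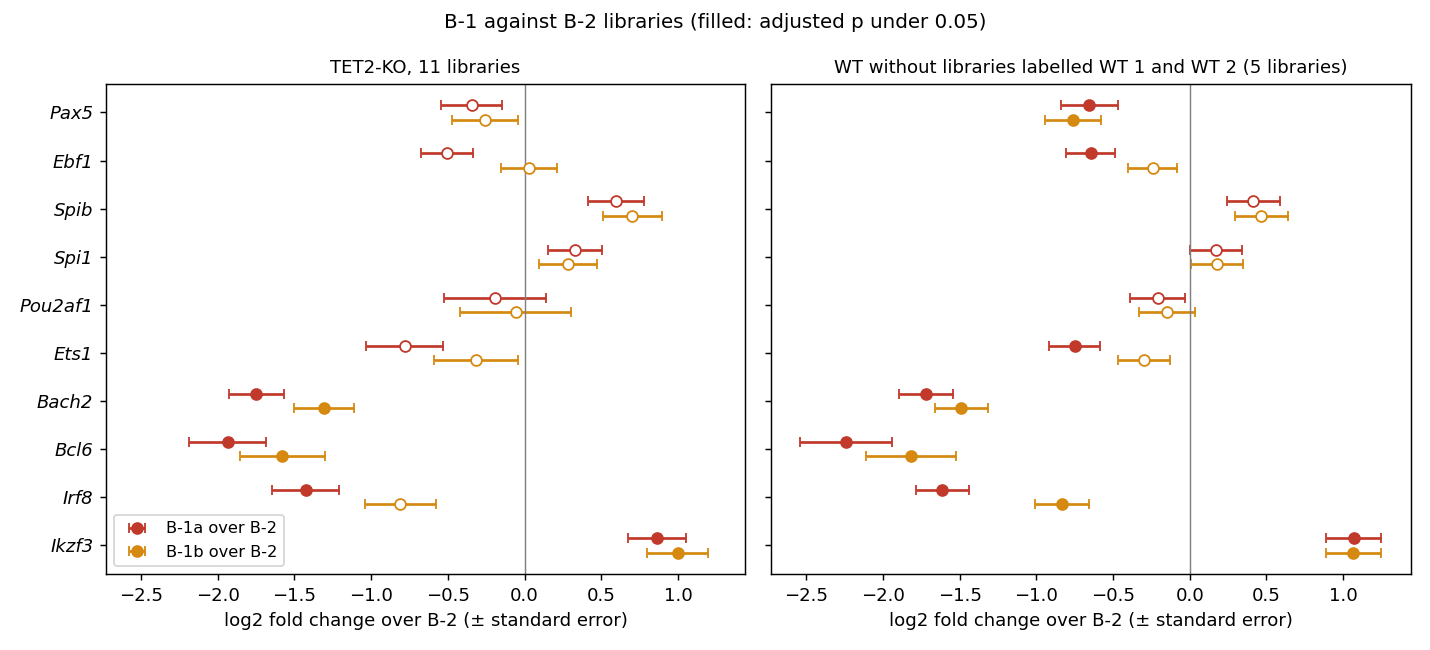
Log2 fold change of each gene in B-1a (red) and B-1b (orange) over B-2 cells, with standard errors as bars and filled points for an adjusted p under 0.05 (edgeR). Left, the 11 TET2-KO libraries; right, the 5 WT libraries that are not labelled WT 1 or WT 2, of which 1 is a B-2 library. Bach2 and Bcl6 lay between -2.24 and -1.31 and Ikzf3 between 0.86 and 1.07 in all 4 comparisons.

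Between B-1a and B-1b cells of TET2-KO mice, none of the 10 genes passed the edgeR test, against 0.205% of all genes (38). DESeq2 called 0 of the 10 (0.727% of all genes), and 3 had an unadjusted p under 0.05 by edgeR (5.78% of all genes). These 3, Ebf1, Bach2 and Irf8, were lower in every B-1a than in every B-1b library, where 3.07% of all genes were lower without overlap. Their log2 fold changes were -0.53 (SE 0.18), -0.44 (SE 0.19) and -0.62 (SE 0.23), with adjusted p-values of 0.700, 0.853 and 0.778 (edgeR). For Irf8 the values were ordered B-1a (88.6 to 145 CPM), B-1b (147 to 219 CPM) and B-2 (238 to 356 CPM), and neighbouring subsets did not overlap. For Bach2 the same order held (22.8 to 30.2, 30.7 to 39.1 and 73.7 to 98.8 CPM), with a narrow gap between B-1a and B-1b. The blocked fit also called 0 of the 10.

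In the WT libraries with all labels as deposited, 0 of the 10 genes passed the edgeR test in any of the 3 subset comparisons, against 0% of the 16769 genes tested in each. There were 0 at an unadjusted p under 0.05, where 0.984% of all genes passed for B-1a against B-2, 0.942% for B-1b against B-2 and 1.23% for B-1a against B-1b, and DESeq2 called 0 of the 10. The B-1a WT libraries 1 to 4 had Bach2 at 59.8, 28.7, 26.0 and 26.3 CPM, the B-1b WT libraries at 19.2, 64.8, 30.5 and 31.5 CPM, and the libraries B-2 WT 1 and B-2 WT 4 at 24.3 and 86.3 CPM. The high values carried the labels B-1a WT 1, B-1b WT 2 and B-2 WT 4, so the labelled groups overlapped. Irf8 was at 444, 163, 90.3 and 120 CPM in B-1a, 109, 437, 174 and 191 CPM in B-1b and 197 and 322 CPM in B-2 WT libraries, with the highest values in the same B-1 libraries as Bach2. Ikzf3 took the opposite course, at 160 CPM in the library labelled B-1a WT 1 and 186 CPM in that labelled B-1b WT 2, against 231 to 292 CPM in the other B-1 WT libraries.

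Without the 5 libraries labelled WT 1 or WT 2, 7 of the 10 genes differed between B-1a and B-2 WT cells (7.16% of all genes) and 5 between B-1b and B-2 (5.53%). DESeq2 called 6 (7.4%) and 6 (5.61%) on the same libraries. This left B-2 WT 4 as the lone WT B-2 library, which was assumed to vary like the other groups. In B-1a, Bach2 (log2 fold change -1.72, adjusted p = 1.02e-07), Bcl6 (-2.24, adjusted p = 7.2e-06) and Irf8 (-1.61, adjusted p = 2.44e-07) were lower and Ikzf3 (1.07, adjusted p = 0.000208) was higher by edgeR. Ebf1 (-0.65), Ets1 (-0.75) and Pax5 (-0.65) were also called lower in B-1a. In B-1b, Bach2 (-1.49), Bcl6 (-1.82), Irf8 (-0.83) and Pax5 (-0.76) were called lower and Ikzf3 (1.07) higher. Between B-1a and B-1b WT cells 1 of the 10 passed (3.22% of all genes), which was Irf8 with a log2 fold change of -0.78 (SE 0.15, adjusted p = 0.00178, edgeR), where DESeq2 called 2 of the 10 (3.62%). In 1 fit of the 16 libraries, 3 of the 10 passed between B-1a and B-2 WT cells (0.437% of all genes), Bach2, Bcl6 and Irf8, and 1 between B-1b and B-2 (0.136%), Bach2; Ikzf3 passed in neither (adjusted p = 0.460 and 0.815, edgeR). Macrophage genes moved with the WT subsets too: 7 of 10 markers were called lower in B-1b than in B-2 WT cells, and their summed level was 27120 to 28115 CPM in B-1a, 12635 to 14660 in B-1b and 25561 in the B-2 library. Their part in the levels of Spi1 and Irf8, which macrophages also express, was not tested.

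The comparison of TET2-KO with WT cells called none of the 10 genes within a subset. The study reported this contrast of RNA for B-1a and B-1b cells, with DESeq2. The edgeR test called 0 of 10 in B-1a (0.0503% of 13923 genes), 0 in B-1b (0% of 14368) and 0 in B-2 cells (0% of 19786), and DESeq2 called 0 in each (1.02%, 0.398% and 0.855% of all genes). At an unadjusted p under 0.05 there were 1, 1 and 2 of the 10, against 7.85%, 5.48% and 8.86% of all genes. The log2 fold changes ran from -0.91 to 0.15 in B-1a, -0.59 to 0.46 in B-1b and -0.98 to 0.59 in B-2 cells. Without the libraries labelled WT 1 or WT 2 they ran from -0.41 to 0.20, -0.34 to 0.32 and -0.44 to 0.03, with 0 at an unadjusted p under 0.05 in each subset. The sign then changed for 4 genes in B-1a (Spi1, Ets1, Bcl6 and Irf8), 3 in B-1b (Ets1, Bach2 and Bcl6) and 5 in B-2 cells (Pax5, Ets1, Bach2, Bcl6 and Irf8). A test of the genotype difference in B-1a minus that in B-1b or in B-2 cells called 0 of the 10 by edgeR (0% and 0.00443% of 22597 genes), with 0 and 1 at an unadjusted p under 0.05 (3.29% and 5.13% of all genes). Without the libraries labelled WT 1 or WT 2 it also called 0 of the 10 in each case, as it did of all 27911 genes tested.

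**Figure D4:**
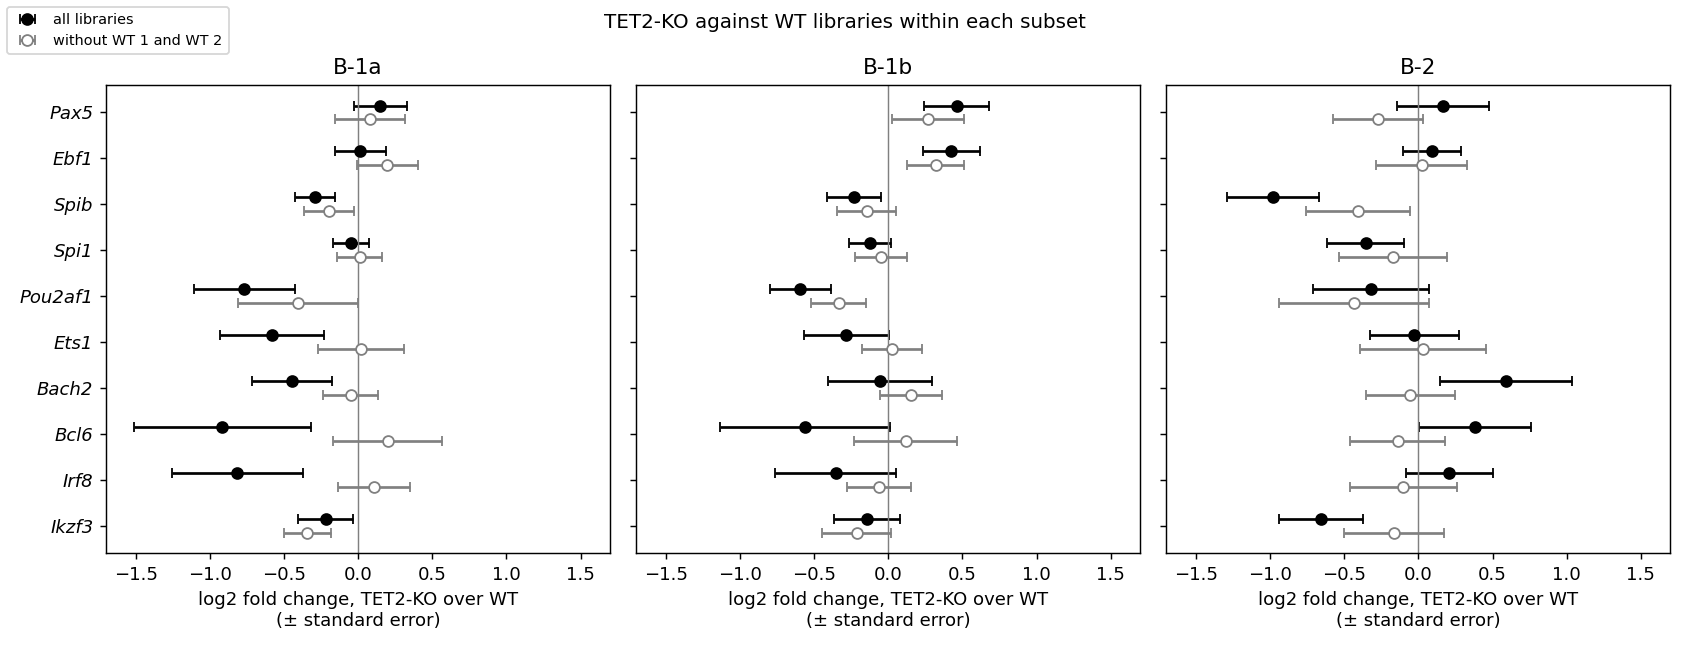
Log2 fold change of each gene in TET2-KO over WT cells within B-1a, B-1b and B-2, with standard errors as bars. Filled points use all libraries and open points leave out those labelled WT 1 or WT 2, which brings the range in B-1a from -0.91 to 0.15 down to -0.41 to 0.20.

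Pou2af1, the octamer coactivator, was lower in every TET2-KO than in every WT library of both B-1 subsets, without passing the test. It was at 1104, 850, 569 and 636 CPM in WT and 527, 548, 558 and 180 CPM in TET2-KO B-1a libraries, the lowest by far being B-1a TET2-KO 4. In B-1b cells it was at 836, 989, 572 and 698 CPM in WT and 531, 465 and 509 CPM in TET2-KO libraries, again without overlap. Of all genes, 3.38% in B-1a and 3.93% in B-1b were lower without overlap. The log2 fold changes were -0.77 in B-1a (interval of 2 SE -1.45 to -0.084, adjusted p = 0.628) and -0.59 in B-1b (-1.01 to -0.178, adjusted p = 0.838), neither passing the edgeR test. Without the libraries labelled WT 1 or WT 2 they were -0.41 (-1.21 to 0.403) and -0.34 (-0.704 to 0.034). In B-2 cells Pou2af1 was at 587 and 699 CPM in WT and 534, 442, 795 and 267 CPM in TET2-KO libraries, which overlapped.

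Ebf1 was higher in every TET2-KO than in every WT B-1b library (179 to 230 against 116 to 178 CPM), as 3.74% of all genes were, with a log2 fold change of 0.43 (interval of 2 SE 0.038 to 0.812) that did not pass the test. Without the libraries labelled WT 1 or WT 2 it was 0.32 (-0.068 to 0.706), an interval that takes in 0. In B-2 cells Spib was at 717 and 359 CPM in WT and 224 to 345 CPM in TET2-KO libraries. All TET2-KO values were lower, as for 7.24% of all genes, but the log2 fold change of -0.98 (adjusted p = 0.531, edgeR) rested on the library labelled B-2 WT 1 and was -0.41 without it. For Irf8 in B-1a cells the log2 fold change was -0.81 with all libraries and 0.11 without those labelled WT 1 or WT 2, the lone high value being 444 CPM in the library labelled B-1a WT 1. After that omission, the intervals of 2 SE still reached from -0.541 to 0.938 for Bcl6 in B-1a and from -1.45 to 0.576 for Pou2af1 in B-2 cells, so changes of that size were not resolved at this number of libraries.

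Other regulators and targets of the 10 factors, also listed with earlier results of these data known, were read in TET2-KO B-1a against B-2 cells. The median log2 fold change of all genes tested was -0.05. In this comparison 3.26% of all genes were called higher and 2.57% lower, and 8.83% either way with the replicate block. Of 24 other B cell transcription factors, 1 was called higher and 5 lower (median -0.19), and 3 higher and 7 lower with the block. The 4 largest changes among them were in Ikzf2 (-2.72), which encodes Helios, Lmo2 (-1.71), Id3 (-1.09), an inhibitor of E proteins, and Mef2c (-0.90), and the Ikzf2 libraries overlapped between groups. Of 16 genes that the factors activate, 2 were called higher and 3 lower (median 0.12), led by the fall of Fcer2a (-5.94) and Cr2 (-4.12), the receptors CD23 and CD21, then Cd72 (-1.19), with Blk (0.81) higher. CD23 was part of the sort. Cd79a (0.23, SE 0.27), a B cell receptor gene and target of Pax5 and Ebf1, did not pass the test. Of 6 genes repressed by Pax5, 0 were called higher and 1 lower (median -0.41), which was Flt3 (-4.50), a receptor of early progenitors and dendritic cells. With the block 1 of these 6 was called higher and 1 lower.

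Among genes of the plasma cell program, which Bach2 and Bcl6 oppose, 2 of 5 tested were called higher in TET2-KO B-1a than B-2 cells and 0 lower. The median was 0.15, against -0.05 for all genes, of which 3.26% were called higher and 2.57% lower. Prdm1, which encodes the plasma cell regulator Blimp-1, was higher by 1.93 on the log2 scale (SE 0.46, adjusted p = 0.0209, edgeR), and Jchain, which encodes the joining chain of secreted IgM, by 2.25 (SE 0.53, adjusted p = 0.0226, edgeR). Irf4 (0.0034, SE 0.20) and Xbp1 (0.15, SE 0.28) did not pass. Of 8 germinal center genes, Bcl6 included, 2 were called higher and 1 lower (median -0.79). Rgs13, a regulator of chemokine signalling, was higher by 2.99 (SE 0.31), while Bcl6 was the 1 called lower.

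In TET2-KO B-1b against B-2 cells, all genes had a median of -0.10, with 1.52% called higher and 0.631% lower. Of the 24 other transcription factors, 1 was called higher and 1 lower (median -0.13), namely Tcf4 (0.88) and Id3 (-0.98). Of the activated targets 0 were called higher and 3 lower (median 0.28): Fcer2a (-4.12), Cr2 (-2.86) and Cd72 (-1.49). Flt3 (-3.67) was again the 1 of 6 Pax5-repressed genes called lower (median -0.45). Jchain (3.88) was the 1 of 5 plasma cell genes called higher (median 0.60), with Prdm1 at 1.02 (SE 0.48, adjusted p = 0.259, edgeR). Of the 8 germinal center genes 2 were called higher, Rgs13 (2.34) among them, and Bcl6 was called lower (median -0.43). Cd79a (0.30), Irf4 (0.22) and Xbp1 (0.60) did not pass the test. Between the genotypes, 0 genes of these lists were called in any subset by edgeR, with or without the libraries labelled WT 1 or WT 2.

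Marker genes of cell types, listed with earlier results of these data known, were read in the same TET2-KO libraries. Of all genes, 5.82% were called between B-1a and B-2 cells there (8.83% with the block) and 2.15% between B-1b and B-2 cells. Pan B cell markers were abundant in all 21 libraries (summed level 11686 to 28764 CPM, led by Cd79a). Of these 6 markers, 0 were called between TET2-KO B-1a and B-2 cells (median 0.19), and 1 was called higher with the block. Of 8 B-1 markers 6 were called higher in B-1a (median 2.47), and of 6 follicular B-2 markers 5 were called lower (median -2.73). Cd5, CD23 and IgD, whose gene Ighd is in the follicular list, were part of the sort. Against B-2, B-1b cells had 5 of 8 B-1 markers called higher (median 1.56) and 3 of 6 follicular markers lower (median -1.85). Macrophage markers were present throughout, with a summed level of 4789 to 28835 CPM in TET2-KO B-1a, 6318 to 15230 in B-1b and 4326 to 19781 in B-2 libraries, led by Lyz2, and 0 of 10 were called between B-1a and B-2 (median 0.25). T cell markers summed to 18.7 to 51.4 CPM in TET2-KO B-1a and 11.9 to 22.9 CPM in B-2 libraries, and 1 of 8, Cd3g, was called higher in B-1a (1.89). Dendritic cell markers summed to 1.65 to 5.17 CPM in TET2-KO B-1a and 15.7 to 38.6 CPM in B-2 libraries. Flt3 alone was at 0 to 1.90 and 10.6 to 33.5 CPM and made most of the B-2 sums. It was the 1 of 4 tested that was called lower. Erythroid markers summed to 1.61 to 30.1 and 0.645 to 31.8 CPM, with 0 of 5 called. The part of other cells in the levels of Irf8, Spi1, Ets1 and Ikzf3 was not tested.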

How the data were processed

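The authors trimmed reads with fastp, aligned them with STAR (mouse build GRCm39) and ran featureCounts 1.6.1 on GENCODE vM32 genes, and the deposited values are those whole-number counts. Per the file headers, pairs were counted without strand, and the defaults leave out fragments that map to several places or overlap several genes. Versions of fastp and STAR are not given in the sources used here. The labels and the study's methods describe library preparation differently (poly-T selection with random primers, or amplified full-length cDNA). The labels' subset and genotype formed the groups.

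Symbols came from GENCODE vM39 (56310 of 56953 identifiers matched). Differences were tested with edgeR 4.0.16 in R 4.3.3 (TMM factors, filterByExpr by group, robust quasi-likelihood fit), with p-values adjusted by Benjamini-Hochberg over all genes tested and a threshold of 0.05. Subsets were compared within a genotype in 1 fit of its libraries, genotypes within a subset, and differences of genotype effects over all 21 libraries. SE is the log2 fold change over the square root of the F statistic. The steps were tested on simulated data. Replicate numbers were taken from the labels, and they paired the TET2-KO B-1a and B-2 libraries (correlations of deviations from group means 0.643, 0.328, 0.364 and 0.640 over 9450 genes) and the TET2-KO B-1a and B-1b libraries (0.486, 0.263 and 0.293).

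Alternatives were DESeq2 1.42.0, RLE factors, no filter, at least 10 counts in every library, TMM without immunoglobulin genes, the replicate block, all 21 libraries in 1 fit, leaving out each library, and leaving out those labelled WT 1 and WT 2. Chosen after seeing the data were 1 fit of 16 libraries, leaving out the TET2-KO libraries numbered 4, and DESeq2 on WT libraries other than those labelled WT 1 and WT 2. The 10 genes and all gene lists were chosen with earlier results of these data known. Named besides the 10 were Tet2, at most the 4 largest called changes of each gene list, Cd79a, Prdm1, Irf4 and Xbp1, the sort markers and the most abundant marker of a cell type. Some genes that this rule named are not reported here.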

Additional observations from a re-analysis of the deposited data

Results flagged for a closer look

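In the 4 groups of 4 libraries, Dixon's test at the 95% level marked 1 library as far from the others in 6 of 40 pairs of gene and group, where chance alone marks about 1 in 20. In 4 of the 6 the library was labelled WT 1 or WT 2. Bach2 was at 59.8 CPM in the library labelled B-1a WT 1, against 26.0 to 28.7 in the other B-1a WT libraries, and Bcl6 there was at 27.3 against 3.91 to 5.51 CPM. In the library labelled B-1b WT 2, Bcl6 was at 25.0 against 4.15 to 6.89 CPM and Ets1 at 870 against 409 to 440 CPM. Among TET2-KO B-1a libraries, Pou2af1 was at 180 CPM in B-1a TET2-KO 4 against 527 to 558, and Bach2 at 30.2 CPM in B-1a TET2-KO 2 against 22.8 to 23.9.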

How the results depend on the processing

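For TET2-KO B-1a against B-2, DESeq2 and the replicate block each called 7 instead of 4, 1 fit of all 21 libraries 2 and the 16-library fit 5. For TET2-KO B-1b against B-2, DESeq2 called 5 instead of 3, 1 fit of all 21 libraries 0 and the 16-library fit 3. The replicate block called 5. Correlations between these libraries were 0.458, 0.182 and 0.034 for the same number, against at most 0.106, 0.073 and 0.133 for other numbers. Pairing was thus not seen for number 3. The block changed no other count of the 10 by over 1.5 times. With the libraries labelled WT 1 or WT 2 left out, edgeR called 7, 5 and 1 of the 10 instead of 0 for WT B-1a against B-2, B-1b against B-2 and B-1a against B-1b, DESeq2 called 6, 6 and 2, and the 16-library fit 3, 1 and 0. For TET2-KO against WT in B-2 cells, leaving out either WT library left 1. Without B-2 WT 4 this was the library labelled B-2 WT 1, whose Fcer2a of 24.2 CPM lay in the B-1a range of 4.61 to 26.8. The log2 fold change of Spib ran from -1.38 to -0.41 over the libraries left out. Irf8 in TET2-KO against WT B-1a cells was 0.11 once those labelled WT 1 or WT 2 were left out and 0.069 in the 16-library fit, and Pou2af1 in TET2-KO B-1a against B-2 cells ranged from -0.40 to 0.07 over the libraries left out (0.073 without B-1a TET2-KO 4 and 0.02 without B-2 TET2-KO 3). RLE factors shifted the median gene by about -0.10 in both comparisons of TET2-KO B-1 with B-2 cells. The cause of these differences was not tested.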
